A study of Mus musculus and Rattus norvegicus with 6 samples.

Results

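ATP-binding cassette (ABC) transporters form one gene family with subfamilies A to G. The family was taken as every probe set whose only annotated symbol is Abca, Abcb, Abcc, Abcd, Abce, Abcf or Abcg followed by a number, with 1 symbol left out. That rule found 140 of 76079 probe sets. In mice they were 91 probe sets of 44 genes, among 18193 genes with a symbol of their own, and in rats 49 probe sets of 36 genes, among 14217. Liver RNA was hybridised to Affymetrix arrays, 1 array per group and 3 groups per species. The mouse groups were male Lepob/Lepob mice injected with leptin, male Lepob/Lepob mice injected with saline, and male WT littermates injected with saline, all on a C57/BL6J background. The rat groups were male Lepmkyo/Lepmkyo rats injected with leptin, the same mutants injected with saline, and male WT littermates injected with saline, all F344/NSlc. Animals were 20 weeks old, injections were intraperitoneal, and livers were taken 6 h later.

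Both mutations remove leptin, the fat cell hormone that restrains feeding, in every tissue from birth, so the mutants are lifelong obese animals and injected leptin acts on every organ with its receptor. Below, the arrays are called mutant leptin, mutant saline and WT saline. One label field gives the rat mutants the mouse allele name, and the rat allele is taken here from the other fields. The labels do not say how many animals stand behind an array. With 1 array per group no difference could be tested against animals, so every comparison below describes 2 arrays. In bulk liver RNA, fewer cells of a type and less RNA per cell cannot be told apart.

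ABC proteins use ATP hydrolysis to move substrates across membranes. In hepatocytes some stand in the canalicular membrane and secrete phospholipid, sterols and conjugates into bile, some stand in the sinusoidal membrane and return organic anions to blood, and others serve peroxisomes, mitochondria and lysosomes. Subfamilies E and F lack membrane domains and work on ribosomes. Several liver ABC genes are known targets of nuclear receptors, among them LXR, FXR, PPARα, CAR and PXR, and of the oxidative stress factor NRF2.

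The promoter windows of the mouse genes on which the comparisons turn most are shown here, since they lie at transcript starts of genes that stood far apart between genotypes (Abcb1a, Abcc4 and Abca8a) and of a divergently transcribed pair (Abcg5 and Abcg8) whose mouse signals lay close together on all 3 arrays. A window runs from 250 bases before to 50 bases after a transcript start of RefSeq. For Abcc4, Abca8a and the Abcg8 window used here this start is not the gene's outermost annotated one, and Abcg8 has 2 windows. The sequences are RefSeq's for GRCm38.p6, and 34 of the 44 mouse genes had one. Abcd2 had none. The searched motifs are in capitals and were read on both strands: the nuclear receptor core motifs AGGTCA and AGTTCA, the E-box CACGTG, the NRF2 response element core TGACNNNGC and the GATA site AGATAA. They were held by 16.3%, 14%, 7.15%, 12.4% and 11.2% of all 32851 mouse windows, in that order.

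Abcb1a, chr5:8566841-8567140, plus strand: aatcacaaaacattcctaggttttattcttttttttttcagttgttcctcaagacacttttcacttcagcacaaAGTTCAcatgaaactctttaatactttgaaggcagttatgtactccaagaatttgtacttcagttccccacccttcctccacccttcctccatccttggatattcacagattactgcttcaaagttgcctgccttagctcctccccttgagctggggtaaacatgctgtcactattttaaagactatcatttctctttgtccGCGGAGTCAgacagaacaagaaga

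Abcc4, chr14:118706170-118706469, minus strand, 1 of its 2 windows: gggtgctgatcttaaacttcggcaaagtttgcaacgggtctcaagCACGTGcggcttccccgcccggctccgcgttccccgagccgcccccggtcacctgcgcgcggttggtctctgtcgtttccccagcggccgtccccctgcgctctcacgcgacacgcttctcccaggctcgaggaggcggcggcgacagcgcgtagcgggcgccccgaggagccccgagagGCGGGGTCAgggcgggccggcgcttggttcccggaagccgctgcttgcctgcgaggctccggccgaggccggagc

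Abca8a, chr11:110095888-110096187, minus strand: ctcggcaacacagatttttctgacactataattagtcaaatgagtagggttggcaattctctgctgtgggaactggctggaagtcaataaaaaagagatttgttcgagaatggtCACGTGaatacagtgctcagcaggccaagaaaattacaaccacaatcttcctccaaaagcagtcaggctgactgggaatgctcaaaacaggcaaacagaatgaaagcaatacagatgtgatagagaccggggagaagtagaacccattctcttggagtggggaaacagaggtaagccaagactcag

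Abcg5 and Abcg8, bases common to both windows, chr17:84682962-84683170, plus strand: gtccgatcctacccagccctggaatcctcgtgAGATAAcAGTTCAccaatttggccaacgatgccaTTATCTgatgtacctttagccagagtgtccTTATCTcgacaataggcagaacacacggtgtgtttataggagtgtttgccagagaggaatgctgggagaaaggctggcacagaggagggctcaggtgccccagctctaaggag

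With positions counted from that transcript start, the Abcb1a window held AGTTCA beginning 176 bases before the start and the NRF2 core just after the start. The Abcc4 window held CACGTG 205 bases and the NRF2 core 25 bases before the start. The Abca8a window held CACGTG 136 bases before the start. The 209 bases shared by Abcg5 and Abcg8 held 3 GATA sites and 1 AGTTCA, none overlapping another motif. These matches say only that the letters occur in the windows.

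The deposited values are MAS5 signals, a linear intensity per probe set, with a trimmed mean of 496 to 497 on all 6 arrays and medians of 77.0 to 91.9 on mouse arrays and 93.6 to 99.3 on rat arrays. The median signal of a platform, 82.7 for the mouse arrays and 97.0 for the rat arrays, served as a floor. A gene counted as measured in a comparison where at least 1 of its 2 arrays reached the floor, and a lower signal was raised to the floor, so that a fold against it is a bound and is written "at least". The hepatocyte markers of the fixed list all reached the floor in both species (8 of 8 each), with Alb, the plasma albumin gene, at 35899 (mutant leptin), 35699.7 (mutant saline) and 47895 (WT saline) in mice and 40374 (mutant leptin), 37062 (mutant saline) and 42678 (WT saline) in rats. Lep itself lay under the floor on every array, at 2.8 (mutant leptin), 3.2 (mutant saline) and 4.0 (WT saline) in mice and 3.1 (mutant leptin), 6.0 (mutant saline) and 4.0 (WT saline) in rats, and gives no check of the genotype labels. Where a gene had several probe sets, the brightest stands for it. The SD of the log2 ratio among probe sets of 1 gene, pooled over all genes with several, was 0.45 for the genotype comparison in mice and 0.44 in rats, and 0.26 and 0.25 for the leptin comparison. It is a technical spread and leaves out the spread between animals.

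Most of the family reached the floor, which is a median of all signals and not a detection call. Between the saline arrays 37 of 44 mouse ABC genes were measured, against 11956 of all 18193 genes. In rats 29 of 36 were, against 9817 of 14217. In mice 30 of 44 ABC genes reached the floor on all 3 arrays, 7 on some and 7 on none. The 7 at no array were Abca4, Abca12, Abca13, Abca14, Abca16, Abcb1b and Abcc12. In rats 26 of 36 reached it on all 3 arrays, 5 on some and 5 on none, namely Abca4, Abca7, Abcb9, Abcg4 and Abcg8. Signals under the floor do not show absence, since a probe set can be insensitive.

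Comparing saline-injected mutants with WT littermates asks how lifelong leptin deficiency goes with liver expression. In Lepob/Lepob mice 37 ABC genes were measured. At 2-fold, Abcb1a, Abcc4 and Abcd2 were higher, 3 of 37 against 4.46% of all 11956 genes measured. Abca2, Abca8a, Abcb8 and Abcg4 were lower, 4 of 37 against 3.71%. At 1.5-fold, 8 were higher (all genes 12.3%) and 8 lower (all genes 12.6%), so 16 of 37 (43.2%) stood at least 1.5-fold apart against 24.8% of all genes. The family's median log2 ratio was 0.07 and that of all genes −0.03, and the median distance from 0 was 0.47 for the family and 0.33 for all genes. In saline-injected Lepmkyo/Lepmkyo rats 29 ABC genes were measured. Abcc8 was the 1 gene at least 2-fold higher (all 9817 genes 2.99%) and Abcg5 the 1 at least 2-fold lower (all genes 1.45%). At 1.5-fold 5 were higher (10.2%) and 4 lower (5.92%), together 9 of 29 (31%) against 16.1% of all genes. The rat family median was 0.07 and that of all genes 0.04, with a median distance from 0 of 0.38 for the family and 0.245 for all genes. Neither family median stood more than 0.1 from that of all genes, and the mouse median became −0.01 when a gene was taken as the median over its probe sets.

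Scaling the mouse arrays to a common median instead of the deposited trimmed mean moved the genotype median of all genes from −0.03 to 0.22. The higher share of all 2-fold calls was 54.6% as deposited (533 higher, 443 lower), 65.3% after quantile normalization (663 and 352) and 80.4% after median scaling (962 and 235). The family's split of 3 higher and 4 lower became 4 and 4 after quantile normalization, which added Abca5, and 5 and 3 after median scaling, which added Abca5 and Abcc3 and left out Abcb8.

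**Figure D1:**
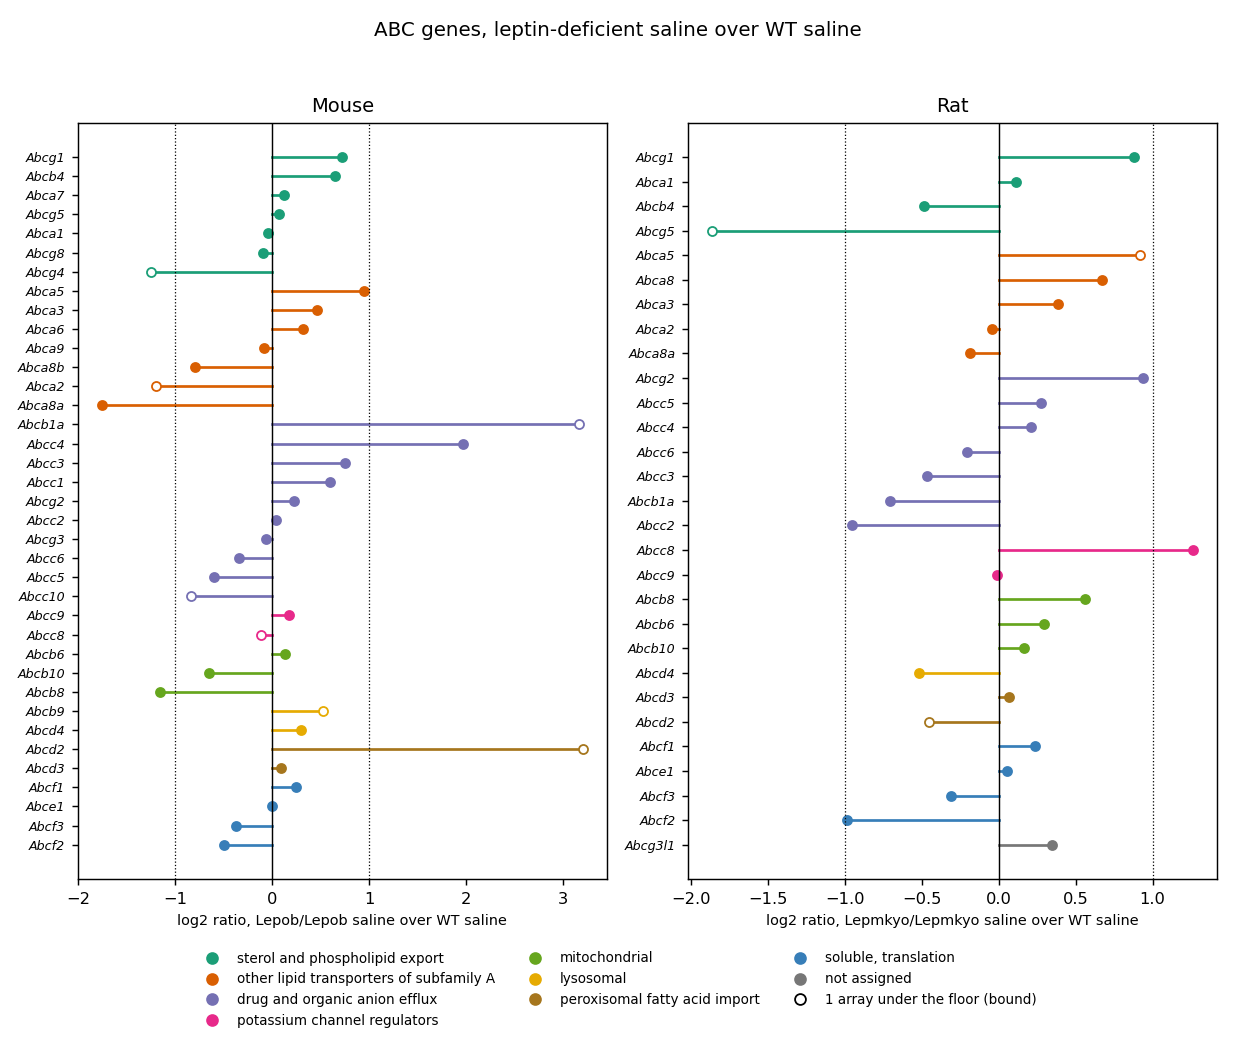
Log2 ratio of mutant saline over WT saline (x axis) for every measured ABC gene in mice (left, 37 genes) and rats (right, 29 genes), coloured by role. Dotted lines mark 2-fold and open circles are bounds with 1 array under the floor; Abcb1a and Abcd2 stand farthest out in mice, Abcg5 and Abcc8 in rats.

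The exporters of sterol and phospholipid differed little in mice at the gene best known for HDL. Abca1, which loads cholesterol and phospholipid onto apolipoprotein A-I, had signals of 11187 on the mutant leptin array, 11502 on the mutant saline array and 11848 on the WT saline array. Those 3 signals lie within a few percent of each other, at a log2 ratio of −0.04 between genotypes. A dimmer Abca1 probe set read 176 (mutant leptin), 159 (mutant saline) and 515 (WT saline), a log2 ratio of −1.70, so the 2 probe sets of this gene disagree by more than the probe set SD. Rat Abca1 had 1490.0 (mutant leptin), 1657 (mutant saline) and 1530.4 (WT saline), with a genotype log2 ratio of 0.11, and its other 3 probe sets gave 0.44, −0.07 and −0.14.

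Abcg1, which passes cholesterol to HDL particles and is abundant in macrophages as well as present in hepatocytes, was higher in mutants of both species. Mouse Abcg1 gave 709.7 on the mutant leptin array, 579 on the mutant saline array and 351 on the WT saline array, 1.65-fold between the saline arrays. A dimmer mouse probe set gave 125 (mutant leptin), 97.9 (mutant saline) and 88.3 (WT saline). Its log2 ratio of 0.15 was inside the probe set SD. Rat Abcg1 gave 509 on the mutant leptin array, 546 on the mutant saline array and 296 on the WT saline array, 1.84-fold. The other rat probe sets of Abcg1 were under the floor on all arrays. On the brightest probe set of each species both mutant arrays stood above the WT array. Most but not all markers of Kupffer cells and macrophages were also higher in mutants. In mice 9 of 9 were measured, their summed signal was 23816 (mutant leptin), 27096 (mutant saline) and 18543 (WT saline), their median log2 ratio between the saline arrays was 0.70, and 3 were at least 2-fold higher (all genes 4.46%). Marco and Clec4f, both Kupffer cell receptors, were lower, at −0.95 and −0.20. In rats 7 of 7 were measured with sums of 13798, 13028 and 9635 on the mutant leptin, mutant saline and WT saline arrays, their median log2 ratio was 0.24, 1 was at least 2-fold higher (all genes 2.99%), and Adgre1 and Csf1r lay at −0.07 and −0.04. None of these markers was at 0 or under the floor on all arrays, and their part in the Abcg1 difference was not tested.

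Abcg5 and Abcg8 are obligate partners that export sterols into bile, and of them Abcg5 alone gave a genotype ratio in both species. In mice Abcg5 read 2329.8 (mutant leptin), 2449 (mutant saline) and 2338 (WT saline) and Abcg8 read 1077 (mutant leptin), 1148 (mutant saline) and 1222 (WT saline). The genotype log2 ratios were 0.07 and −0.09, both well inside the probe set SD, and the Abcg8 ratio turned to 0.17 after median scaling. In rats Abcg5 read 55.2 on the mutant leptin array, 32.0 on the mutant saline array and 352 on the WT saline array. Both mutant rat arrays were under the floor and the WT array above it, so the saline-injected mutants were at least 3.63-fold lower. Rat Abcg8 was under the floor on all 3 arrays, at 59.3 (mutant leptin), 27.9 (mutant saline) and 67.1 (WT saline), and gives no fold.

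Abcb4, the canalicular floppase that supplies phosphatidylcholine to bile, ran in opposite directions. Mouse Abcb4 read 10778 on the mutant leptin array, 10467 on the mutant saline array and 6694 on the WT saline array, with both mutant arrays above WT and a fold of 1.56 between the saline arrays. Rat Abcb4 read 1420.3 on the mutant leptin array, 1884 on the mutant saline array and 2640.5 on the WT saline array, with both mutant arrays below WT and the saline-injected mutants 1.40-fold lower. Both differences exceeded the probe set SD, the rat one by little. Abcg4, a sterol exporter known mainly from brain, read 107 (mutant leptin), 71.9 (mutant saline) and 197 (WT saline) in mice. It was at least 2.39-fold lower in saline-injected mutants by this probe set, while its other measured probe set gave a log2 ratio of 0.04. Abca7, a phospholipid exporter, stayed near the floor in mice, at 94.9 (mutant leptin), 118 (mutant saline) and 108 (WT saline).

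**Figure D2:**
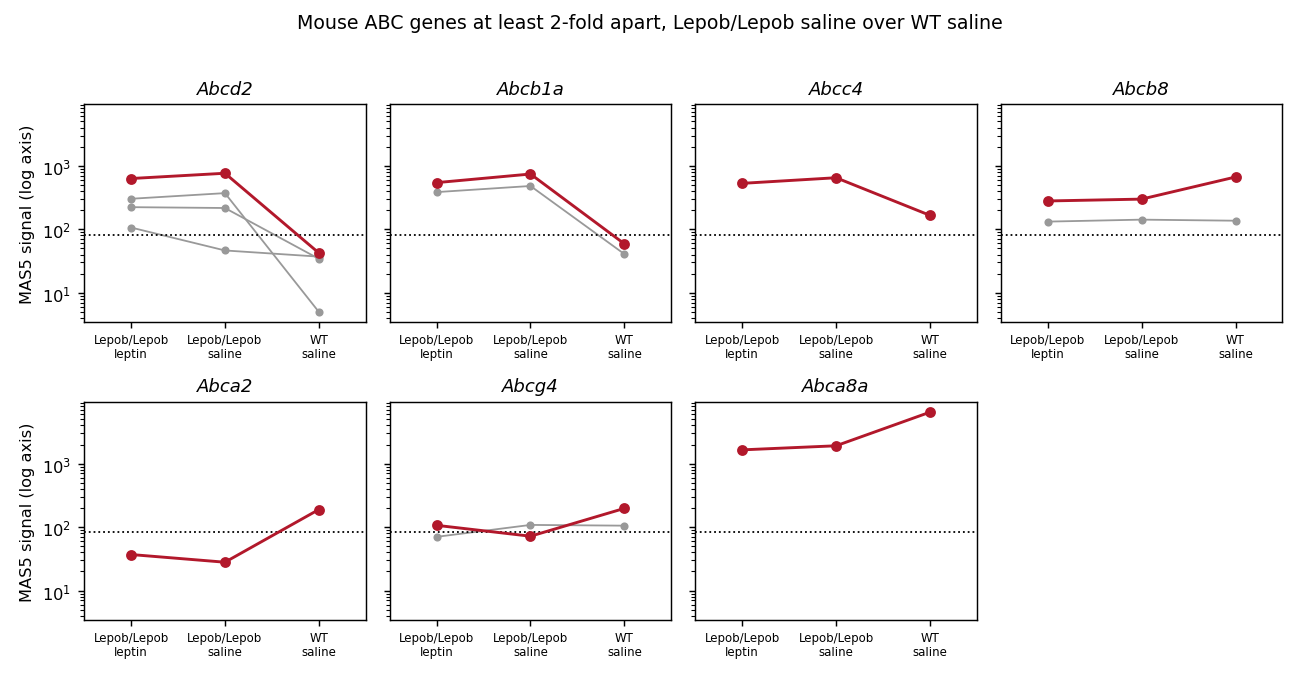
MAS5 signal (log y axis) on the Lepob/Lepob leptin, Lepob/Lepob saline and WT saline arrays for the 7 mouse ABC genes at least 2-fold apart between the saline arrays. Red is the brightest probe set, grey are the others of the same gene and the dotted line is the floor of 82.7; in the Abcd2 and Abcb1a panels the brightest probe set is under the floor in WT and above it on both mutant arrays.

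The remaining lipid transporters of subfamily A include a run of neighbouring mouse genes on chromosome 11, in the order Abca8b, Abca8a, Abca9, Abca6, Abca5. Their genotype log2 ratios lay on both sides of 0 and in that order were −0.79, −1.76, −0.09, 0.32 and 0.95. Abca8a, whose human counterpart exports cholesterol and organic anions, gave 1648 on the mutant leptin array, 1910.0 on the mutant saline array and 6462 on the WT saline array. Both mutant arrays were far below WT, 3.38-fold lower with saline. Abca8b gave 339.9 (mutant leptin), 400.0 (mutant saline) and 693 (WT saline), 1.73-fold lower with saline. Abca5, a transporter of late endosomes and lysosomes, lay at the other end of the run and the other side of 0, with 852 on the mutant leptin array, 777 on the mutant saline array and 403 on the WT saline array, 1.93-fold higher with saline. Abca6 and Abca9, with 532 (mutant leptin), 662 (mutant saline) and 529.7 (WT saline) and with 208 (mutant leptin), 247 (mutant saline) and 262 (WT saline), stood under 1.5-fold apart.

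Rat Abca5 was likewise higher, at 128 on the mutant leptin array, 183 on the mutant saline array and 85.4 on the WT saline array; WT lay under the floor and the saline-injected mutants were at least 1.89-fold higher. The rat array carries a gene annotated Abca8 as well as Abca8a. Abca8 gave 802 (mutant leptin), 882 (mutant saline) and 554 (WT saline), 1.59-fold higher with saline, and Abca8a gave 6479.5 (mutant leptin), 6426 (mutant saline) and 7308 (WT saline), a log2 ratio of −0.19. Near-identical copies such as these may share probes, so which copy a signal belongs to is uncertain, in mice as in rats.

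Abca2, which handles sterols in lysosomes and is best known from brain, gave 37.0 on the mutant leptin array, 28.0 on the mutant saline array and 189 on the WT saline array in mice, at least 2.29-fold lower in saline-injected mutants, against 301 (mutant leptin), 334 (mutant saline) and 343 (WT saline) in rats, where the genotype log2 ratio was −0.04. Abca3, the lamellar body lipid transporter of lung, gave 1356 (mutant leptin), 1425 (mutant saline) and 1031 (WT saline) in mice. Its log2 ratio of 0.47 came with −0.55 from another probe set of the gene, so no direction is given. In rats Abca3 gave 873 (mutant leptin), 889 (mutant saline) and 681 (WT saline), a log2 ratio of 0.38, with −0.14 from another probe set.

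Among the drug and organic anion exporters, Abcb1a was the gene farthest apart. It encodes P-glycoprotein, the multidrug efflux pump, of which rodents carry the copies Abcb1a and Abcb1b. In mice Abcb1a gave 543 on the mutant leptin array, 742 on the mutant saline array and 59.0 on the WT saline array. WT lay under the floor and both mutant arrays well above it, so the saline-injected mutants were at least 8.97-fold higher. A second probe set gave 385 (mutant leptin), 481 (mutant saline) and 40.7 (WT saline), at least 2.54 on the log2 scale. Of its neighbours on mouse chromosome 5, Abcb1b was under the floor on all 3 arrays, at 46.4 (mutant leptin), 42.8 (mutant saline) and 45.4 (WT saline), and gives no fold, and Abcb4 is given above.

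Rat Abcb1a ran the other way, with 552 on the mutant leptin array, 807 on the mutant saline array and 1316 on the WT saline array, 1.63-fold lower in saline-injected mutants. Its second probe set gave 256, 289.9 and 859.9 on the mutant leptin, mutant saline and WT saline arrays, a log2 ratio of −1.57. On both rat probe sets both mutant arrays were below WT.

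Abcc4, a sinusoidal exporter of cyclic nucleotides and conjugates, was the other efflux pump at least 2-fold apart in mice. Its single probe set gave 529 on the mutant leptin array, 649 on the mutant saline array and 166 on the WT saline array, 3.91-fold higher in saline-injected mutants. Abcc3, the sinusoidal exporter of glucuronides, gave 5741 on the mutant leptin array, 6723 on the mutant saline array and 4001 on the WT saline array in mice, 1.68-fold higher. Abcc1, a broad exporter of glutathione conjugates, gave 171 (mutant leptin), 202 (mutant saline) and 134 (WT saline), 1.51-fold higher. For all 3 of these mouse genes the leptin-injected mutants stood between saline-injected mutants and WT. In rats Abcc4 gave 167 (mutant leptin), 179.6 (mutant saline) and 155 (WT saline), a log2 ratio of 0.21. Rat Abcc3 gave 191 (mutant leptin), 216 (mutant saline) and 298 (WT saline) and was 1.38-fold lower in saline-injected mutants, opposite to the mouse gene. Rat Abcc1 was under the floor on both saline arrays and gives no genotype value.

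Abcc2, the canalicular exporter of bilirubin glucuronide, hardly differed in mice, with 7262 (mutant leptin), 6928 (mutant saline) and 6742 (WT saline). In rats it gave 2439.8 on the mutant leptin array, 2489.9 on the mutant saline array and 4809.6 on the WT saline array. Both mutant rat arrays were close to one another and well below WT, 1.93-fold with saline. Abcg2, a canalicular exporter of urate and many drugs, showed the reverse arrangement. It gave 5414 (mutant leptin), 6169.8 (mutant saline) and 5266 (WT saline) in mice, a log2 ratio of 0.23, and 199 (mutant leptin), 230.3 (mutant saline) and 120.1 (WT saline) in rats, where saline-injected mutants were 1.92-fold higher.

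Abcc6, the liver transporter that mediates ATP release and is defective in pseudoxanthoma elasticum, had log2 ratios of −0.34 in mice and −0.21 in rats, inside the probe set SD. Abcc5, an exporter of cyclic nucleotides, gave 138 (mutant leptin), 225 (mutant saline) and 342 (WT saline) in mice, 1.52-fold lower with saline, and 159 (mutant leptin), 212 (mutant saline) and 175 (WT saline) in rats. The mouse probe set can bind several transcripts, and the other Abcc5 probe set measured between the saline arrays gave a log2 ratio of −0.17. Abcc10, a drug efflux pump, gave 45.9 (mutant leptin), 12.7 (mutant saline) and 148 (WT saline) in mice, at least 1.79-fold lower. That probe set can bind several transcripts, and the gene's other one was under the floor on all arrays, at 78.9 (mutant leptin), 51.4 (mutant saline) and 43.9 (WT saline). Abcg3, a rodent gene related to Abcg2, gave 132 (mutant leptin), 139 (mutant saline) and 145 (WT saline), a log2 ratio of −0.07. Its other probe set gave 166 (mutant leptin), 140.1 (mutant saline) and 12.3 (WT saline), at least 1.69-fold higher with saline, so no direction is given. The rat symbol Abcg3l1 gave 196 (mutant leptin), 183 (mutant saline) and 144 (WT saline), a log2 ratio of 0.35.

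**Figure D3:**
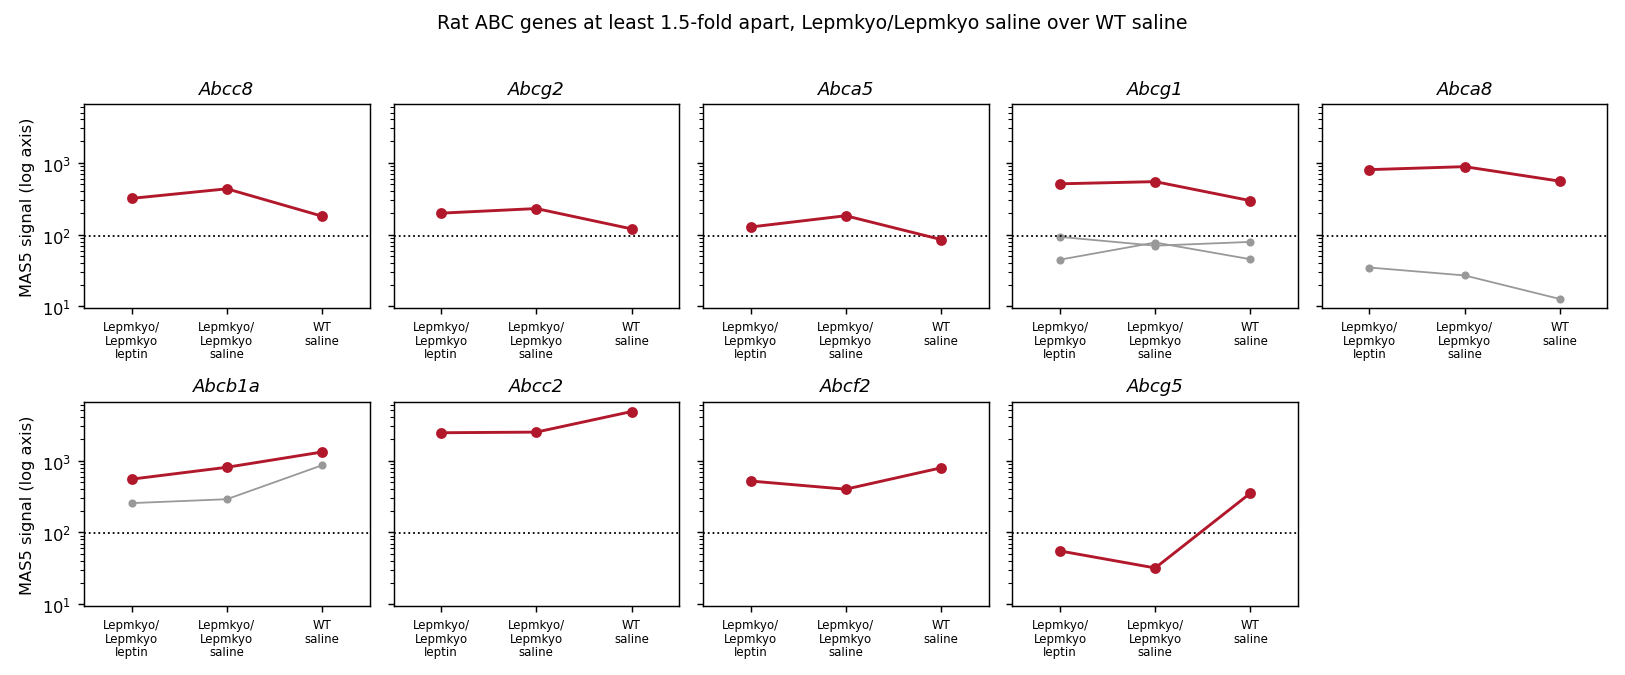
MAS5 signal (log y axis) on the Lepmkyo/Lepmkyo leptin, Lepmkyo/Lepmkyo saline and WT saline arrays for the rat ABC genes at least 1.5-fold apart between the saline arrays. Red is the brightest probe set, grey are the others and the dotted line is the floor of 97.0; in the Abcg5 panel both mutant points are under the floor and the WT point, at 352, is above it.

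The sulfonylurea receptors Abcc8 and Abcc9 regulate ATP-sensitive potassium channels rather than carrying a substrate. Rat Abcc8 was the family's 1 gene at least 2-fold higher in that species, at 319 on the mutant leptin array, 434 on the mutant saline array and 180.5 on the WT saline array, 2.40-fold higher in saline-injected mutants. Its 1 probe set carries a suffix for probes that can bind several transcripts, and on log2(signal + floor) the ratio was 0.94, under 2-fold. Mouse Abcc8 was within reach of the floor only on the WT array, at 59.9 (mutant leptin), 78.6 (mutant saline) and 89.8 (WT saline). Abcc9 had log2 ratios of 0.17 in mice, with 0.04 and −0.48 from its other measured probe sets, and −0.01 in rats. The other measured rat probe sets of Abcc9 were lower in mutants, at −0.54 and at least 1.52-fold lower.

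The mitochondrial members were not alike. Abcb6, a porphyrin transporter, had log2 ratios of 0.13 in mice and 0.30 in rats. Abcb10, an inner membrane protein needed for heme synthesis in red cell precursors, gave 697 on the mutant leptin array, 601 on the mutant saline array and 943 on the WT saline array in mice, 1.57-fold lower in saline-injected mutants, and another probe set gave a log2 ratio of −0.92. Of the red cell markers, Alas2, the heme synthesis enzyme of red cell precursors, was also lower in mutant mice, at 1102 (mutant leptin), 1142 (mutant saline) and 2771 (WT saline). The other markers of that list, Hba-a1 and Slc4a1, were under the floor on all 3 mouse arrays, and their part in the Abcb10 difference was not tested. In rats Abcb10 gave 438 (mutant leptin), 512 (mutant saline) and 458 (WT saline), a log2 ratio of 0.16, with −0.31 from another probe set. The rat red cell markers disagreed. Alas2 gave 337 (mutant leptin), 329 (mutant saline) and 181 (WT saline), while Slc4a1 gave 98.6 (mutant leptin), 119.7 (mutant saline) and 156.6 (WT saline), a log2 ratio of −0.39. Abcb8, an inner membrane transporter linked to iron handling, gave 279 on the mutant leptin array, 299 on the mutant saline array and 666 on the WT saline array in mice, 2.23-fold lower. That value rests on a probe set that can bind several transcripts: the other measured Abcb8 probe set gave 0.06 on the log2 scale. Rat Abcb8 gave 308 (mutant leptin), 274 (mutant saline) and 186 (WT saline), 1.47-fold higher. Abcb9 and Abcd4 work in lysosomes, on peptides and on cobalamin. Abcb9 was measured in mice only, with 160.5 (mutant leptin), 119 (mutant saline) and 70.7 (WT saline), and Abcd4 had log2 ratios of 0.30 in mice and −0.52 in rats.

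In peroxisomes, the importers of very long chain fatty acids Abcd2 and of long and branched chain acyl-CoA Abcd3 differed from one another. Mouse Abcd2 gave 630.3 on the mutant leptin array, 763 on the mutant saline array and 42.4 on the WT saline array. WT lay under the floor and both mutant arrays far above it, and the saline-injected mutants were at least 9.23-fold higher. Of its other probe sets, 1 gave 302, 371 and 5.0 and another 223, 216 and 34.3 on the mutant leptin, mutant saline and WT saline arrays, log2 ratios of at least 2.17 and 1.39. A dimmer probe set was under the floor on both saline arrays. Mouse Abcd3 gave 26012 (mutant leptin), 26858 (mutant saline) and 25234 (WT saline), a log2 ratio of 0.09, while a dim second probe set, under the floor in saline-injected mutants, was at least 1.61-fold lower there than in WT. In rats Abcd2 gave 39.8 on the mutant leptin array, 32.8 on the mutant saline array and 133 on the WT saline array. There the WT array stood above the floor and both mutant arrays under it, at least 1.37-fold lower with saline, and Abcd3 gave 8246 (mutant leptin), 9165 (mutant saline) and 8759 (WT saline). Adipocyte markers ran with mouse Abcd2 in part, with sums of 3165 (mutant leptin), 3295 (mutant saline) and 1146 (WT saline) and 1 of 3 genes measured. Fabp4, a fatty acid binding protein of fat cells and macrophages, gave 3138 (mutant leptin), 3251 (mutant saline) and 1125 (WT saline), while Adipoq and Lep, which define adipocytes, were under the floor on all 3 mouse arrays. In rats Fabp4 gave 504 (mutant leptin), 785 (mutant saline) and 57.7 (WT saline), where Abcd2 was lower. Cfd, the other rat marker measured, was lower in mutants, at 502 (mutant leptin), 463 (mutant saline) and 599 (WT saline). Adipoq, Plin1 and Lep were under the floor on all 3 rat arrays. The part of these cells in the Abcd2 difference was not tested.

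The soluble members act on ribosomes, Abce1 in recycling them and Abcf1 in translation initiation. By their brightest probe sets none of the 4 was 1.5-fold apart in mice. Abce1 gave 2119 (mutant leptin), 2162 (mutant saline) and 2157 (WT saline) in mice and 2174 (mutant leptin), 1937 (mutant saline) and 1864 (WT saline) in rats. A dim mouse Abce1 probe set gave 90.5 (mutant leptin), 56.3 (mutant saline) and 163 (WT saline), at least 1.97-fold lower with saline. Abcf1 had log2 ratios of 0.25 in mice, against −1.20 from another of its 4 measured probe sets, and 0.24 in rats. Abcf2 gave 519 (mutant leptin), 399.8 (mutant saline) and 792 (WT saline) in rats, 1.98-fold lower with saline, and 378 (mutant leptin), 396 (mutant saline) and 559 (WT saline) in mice, 1.41-fold lower. Abcf3 had log2 ratios of −0.37 in mice, with −0.40 and −0.80 from its other probe sets, and −0.31 in rats. A second rat Abcf3 probe set gave 158 (mutant leptin), 147 (mutant saline) and 316 (WT saline), 2.15-fold lower with saline.

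Injecting leptin into mutants asks what the hormone does to liver expression within 6 h. That comparison and the genotype comparison use the same mutant saline array, so an error on it moves both in opposite directions. No ABC gene was 2-fold apart in either species. In mice 34 were measured, with 0 higher (all 11536 genes 0.182%) and 0 lower (0.243%). In rats 29 were measured, with 0 higher (all 9705 genes 0.237%) and 0 lower (0.278%). Calls were that rare among all genes, so counts of 0 are near the background share. At 1.5-fold 1 mouse gene was lower, against 2.21% of all genes, and 0 higher, against 2.18%. No rat gene was, against 2.1% of all genes higher and 2.59% lower. Log2 ratios were below 0 for 22 of 34 mouse genes (all genes 50.5%) and 19 of 29 rat genes (all genes 47.9%). The family medians were −0.07 in mice, where that of all genes was −0.002, and −0.11 in rats, where that of all genes was 0.01.

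The 1 mouse gene was Abcc5, 138 in leptin-injected and 225 in saline-injected mutants, 1.63-fold lower. This was not seen with other settings: without probe sets that can bind several transcripts, and as a median over its probe sets, Abcc5 had a log2 ratio of 0.25. The largest rat ratio was that of Abcb1a, 552 in leptin-injected and 807 in saline-injected mutants, a log2 ratio of −0.55, with −0.18 from its second probe set. Mouse Abcb1a also ran lower after leptin, 543 in leptin-injected and 742 in saline-injected mutants, at −0.45 and, from the second probe set, −0.32. Each exceeded the leptin probe set SD on the brightest probe set. Leptin-injected mutants of both species thus had less Abcb1a signal than saline-injected ones, while the genotype differences pointed in opposite directions.

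In rats Abca5 (128 in leptin-injected and 183 in saline-injected mutants), Abcc8 (319 in leptin-injected and 434 in saline-injected mutants), Abcc5 (159 in leptin-injected and 212 in saline-injected mutants) and Abcb4 (1420.3 in leptin-injected and 1884 in saline-injected mutants) followed, at log2 ratios of −0.52, −0.44, −0.42 and −0.41. On the other side, rat Abcf2 and Abcf3 had 519 in leptin-injected and 399.8 in saline-injected mutants and 961 in leptin-injected and 798 in saline-injected mutants, log2 ratios of 0.38 and 0.27, and Abcc1, under the floor in saline-injected mutants, had 127 in leptin-injected mutants, at least 1.31-fold higher. In mice the highest ratio was that of Abcb9, 160.5 in leptin-injected and 119 in saline-injected mutants, a log2 ratio of 0.43, but its other probe set gave −0.21. Abcg1 followed among genes with both arrays above the floor, at 0.29. The exporters Abca1, Abcb4, Abcg5 and Abcg8 lay between −0.09 and 0.04 in mice.

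**Figure D4:**
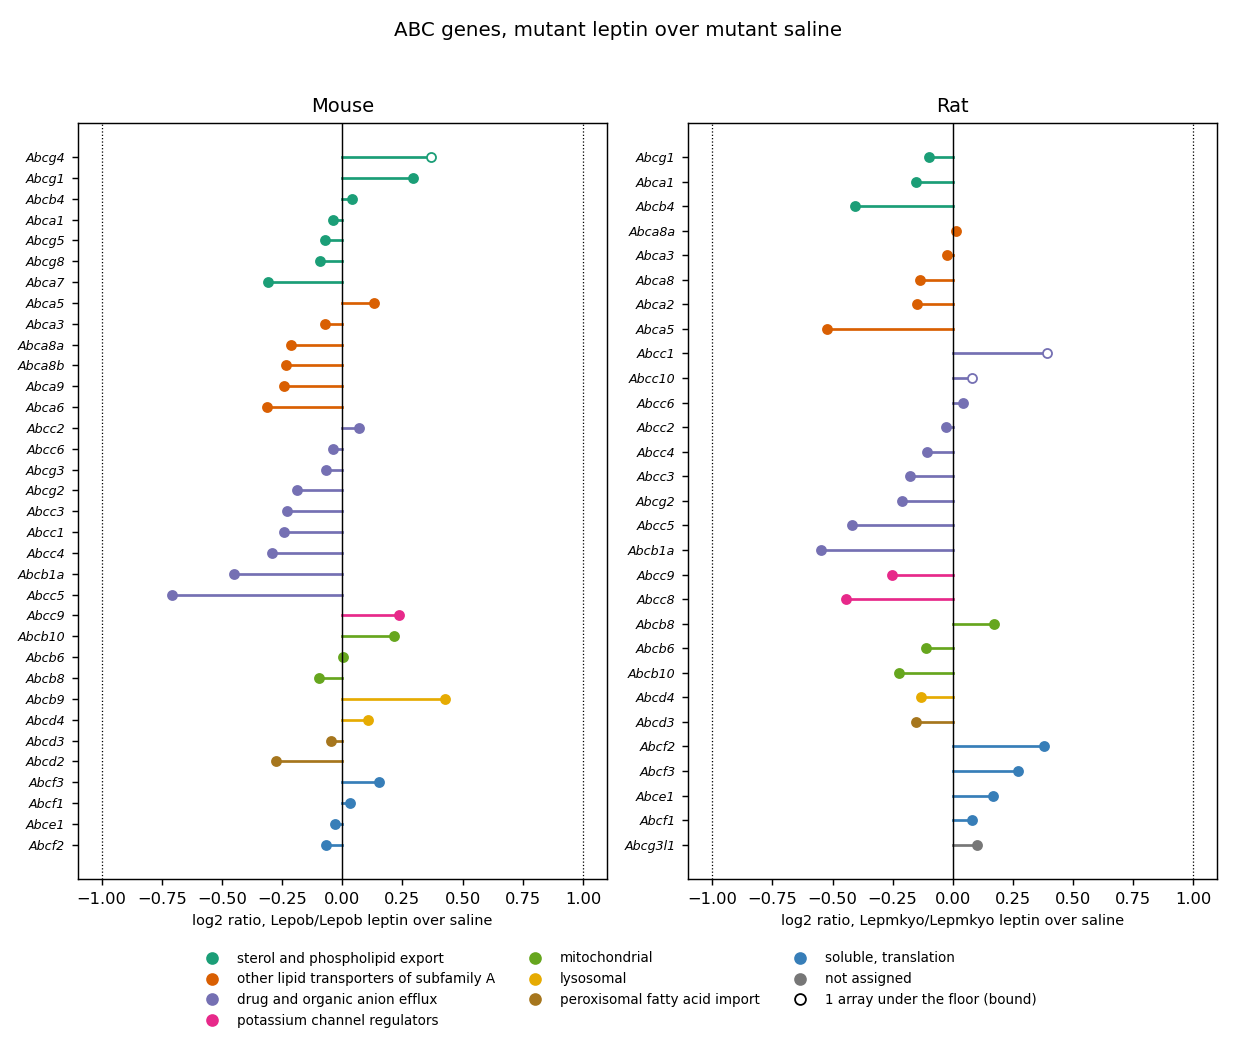
Log2 ratio of mutant leptin over mutant saline (x axis) for every measured ABC gene in mice (left, 34 genes) and rats (right, 29 genes), coloured by role. Dotted lines mark 2-fold and open circles are bounds; no gene of either species reaches 2-fold.

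Leptin-injected mutants can also be set against WT, on values that share the WT array with the genotype comparison and so are not independent of it. With leptin, Abcb1a stood at least 6.57-fold and Abcd2 at least 7.62-fold above WT in mice. Abcc4 stood 3.19-fold above and Abca8a 3.92-fold below. Mouse Abcg4 was 1.85-fold below WT with leptin and rat Abcc8 1.77-fold above, both under 2-fold. Other genes were past 2-fold from WT with leptin but not with saline. The share of all genes past 2-fold between these arrays was not counted. In mice these were Abca5 (2.11-fold above), Abcg1 (2.02-fold above), Abca8b (2.04-fold below) and Abcc5 (2.48-fold below). The Abcc5 probe set can bind several transcripts, and another Abcc5 probe set read 129.5 with leptin and 122.5 in WT. A dimmer Abcg1 probe set read 125 with leptin and 88.3 in WT. In rats it was Abcb1a, 2.385-fold below. For mouse Abca2 and Abcc10 and rat Abcg5 both mutant arrays were under the floor, so their bounds are the same with leptin and saline by construction.

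Between species, 34 symbols were on both arrays and 27 were measured in both for the genotype comparison. The direction was the same for 14 of 27 (51.9%), against 57.9% of 8303 genes measured in both. Pearson's r was −0.11 and Spearman's rho −0.01 over the 27 genes, which share the arrays and are not independent, against a Pearson's r of 0.22 over all 8303 genes. At 1.5-fold in both species stood Abca5, Abcb1a and Abcg1, of which Abca5 and Abcg1 were higher in mutants of both. The share of all genes at 1.5-fold in both species was not counted. The rat Abca5 ratio is a bound, and a dimmer mouse Abcg1 probe set gave a log2 ratio of 0.15. Abcb1a, Abcb4, Abcb8, Abcc3 and Abcd2 pointed in opposite directions with both ratios beyond their probe set SD. The share of all genes that do so was not counted. The rat ratios of Abcb4, Abcc3 and Abcd2 stood little beyond the rat SD of 0.44, at −0.49, −0.47 and −0.455, the last a bound. The mouse Abcb8 ratio was not shared by its other measured probe set, at 0.06. The difference between species was not tested, and strain, allele and array platform change together with species. For leptin, 10 of 24 genes (41.7%) had the same direction, against 53.9% of all genes.

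**Figure D5:**
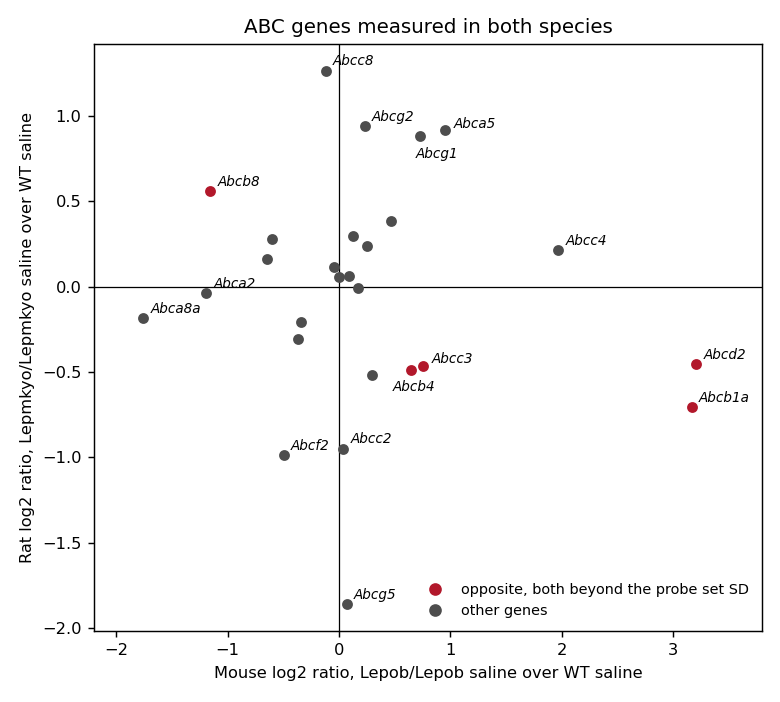
Genotype log2 ratio in mice (x axis) against rats (y axis) for the 27 ABC genes measured in both species. Red points are opposite in sign and beyond the probe set SD in both species; Abcb1a and Abcd2 lie at the right edge below 0, while Abca5 and Abcg1 lie in the upper right.

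Genes that work with the family, from lists drawn up by known role, were set beside it. Of nuclear receptors and other regulators of ABC genes, 16 were measured in mice, 2 passed 2-fold upwards and 0 downwards (all genes 4.46% and 3.71%), with a median log2 ratio of 0.25. The 2 were Ppara, the receptor that drives fatty acid oxidation, at 7609.8 (mutant leptin), 7564 (mutant saline) and 2229.8 (WT saline), and Pparg, the receptor of fat cell differentiation, at 919.6 (mutant leptin), 878 (mutant saline) and 222 (WT saline). As a median over its probe sets Ppara had a log2 ratio of 0.73, under 2-fold. Nr1h4, which encodes FXR, and Nr1i3, which encodes CAR, had log2 ratios of 0.86 and 0.74. In rats 16 were measured and 0 were 2-fold apart either way. Nr1i2, which encodes PXR, had 1135 (mutant leptin), 1089 (mutant saline) and 2065 (WT saline) and Nr1h2, which encodes LXRβ, had 454 (mutant leptin), 445 (mutant saline) and 751 (WT saline), both lower in mutants on either array, while Srebf1, a lipogenic factor, had 6377 (mutant leptin), 5789 (mutant saline) and 3077 (WT saline). Rat Ppara was under the floor on all 3 arrays.

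Targets of CAR and PXR were spread widely in mice: of 9 measured, 3 passed 2-fold upwards and 2 downwards (all genes 4.46% and 3.71%). The steroid hydroxylase Cyp2b9 had 5645 (mutant leptin), 8032 (mutant saline) and 93.4 (WT saline) and Cyp2b13 had 501 (mutant leptin), 2688 (mutant saline) and 47.5 (WT saline), while Cyp2c55 had 266 (mutant leptin), 337 (mutant saline) and 1732 (WT saline). Cyp2b10 and Cyp3a11, of the same list, had genotype log2 ratios of 0.40 and −0.40. With leptin 1 of 9, Cyp2b13, was 2-fold apart, 5.36-fold lower (all genes 0.243%). In rats, of 5 measured, 0 were 2-fold higher and 1, Gadd45b, was lower (all genes 2.99% and 1.45%). Targets of NRF2 numbered 10 measured in mice, 2 at least 2-fold higher (all genes 4.46%) and 0 lower (3.71%), the glutathione transferase Gstm3 at 9222 (mutant leptin), 12895 (mutant saline) and 2869.6 (WT saline) and the quinone reductase Nqo1 at 524 (mutant leptin), 729.6 (mutant saline) and 230.4 (WT saline). With the floor at the 75th percentile Nqo1 had a log2 ratio of 0.92. In rats, of 10, Gstm3 was at least 2-fold higher (all genes 2.99%) and Gsr, glutathione reductase, at least 2-fold lower (1.45%), and on log2(signal + floor) Gstm3 had a log2 ratio of 0.81. With leptin 1 of these 10 rat genes, Hmox1, was 2.22-fold higher (all genes at least 2-fold higher 0.237%), at 3564 (mutant leptin) and 1606.5 (mutant saline).

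Partners of the peroxisomal members numbered 13 measured in mice, with 2 past 2-fold upwards (all genes 4.46%) and 0 downwards (3.71%): Pex11a, which drives peroxisome division, at 8267 (mutant leptin), 8889 (mutant saline) and 2761 (WT saline), and the thiolase Acaa1a at 2042 (mutant leptin), 1917 (mutant saline) and 894 (WT saline). As a median over probe sets Acaa1a had a log2 ratio of 0.60. In rats 12 were measured and 0 were 2-fold apart. Of 13 HDL and sterol handling partners in mice 3 were at least 2-fold higher (all genes 4.46%) and 1 lower (3.71%). Pltp, the phospholipid transfer protein, had 4206 (mutant leptin), 3707 (mutant saline) and 1274 (WT saline), Mylip, which degrades the LDL receptor, had 1733 (mutant leptin), 2077 (mutant saline) and 811 (WT saline), and Cyp7a1, the rate-limiting enzyme of bile acid synthesis, had 3222 (mutant leptin), 2602 (mutant saline) and 1116 (WT saline). As a median over probe sets Cyp7a1 had a log2 ratio of 0.60. Stard4, a cytosolic cholesterol carrier, had 940.0 (mutant leptin), 918 (mutant saline) and 1862 (WT saline), and its log2 ratio of −1.02 became −0.77 after median scaling and −0.96 on log2(signal + floor). In rats none of 12 was 2-fold apart between genotypes. With leptin 1 of these 12 rat genes, Cyp7a1, was 2.14-fold higher (all genes at least 2-fold higher 0.237%), at 7318 (mutant leptin) and 3419 (mutant saline). Partners in heme and iron-sulfur assembly (12 measured in each species) and in translation (10 in mice, 11 in rats) had 0 at 2-fold either way. Of ABC proteins under other symbols, Tap1 and Tap2, which carry peptides for antigen presentation, were under 1.5-fold apart in mice, and in rats Tap2 had 379.6 (mutant leptin), 384 (mutant saline) and 161 (WT saline), 2.39-fold higher with saline. On log2(signal + floor) the log2 ratio of Tap2 was 0.90, under 2-fold. Cftr was under the floor in both species.

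Other cell types also differed between the arrays, and their part in the ABC differences was not tested. Summed stellate cell markers were 22698 (mutant leptin), 22362 (mutant saline) and 13721 (WT saline) in mice, with 0 of 9 at 2-fold, and 10032, 9921 and 3571 in the same order in rats, with 4 of 9 at least 2-fold higher (all genes 2.99%). Des and Acta2 in mice and Acta2 in rats ran the other way between the saline arrays, at log2 ratios of −0.34, −0.015 and −0.11. Dcn made up most of the mouse sums, at 12810 (mutant leptin), 12809 (mutant saline) and 7316 (WT saline). In that order of arrays throughout, summed endothelial markers were 9143, 9626 and 6869 in mice and 8699, 7728 and 6029 in rats. They did not all run the same way between the saline arrays. In mice 1 of 7, Lyve1, was at least 2-fold higher (all genes 4.46%), at a log2 ratio of 1.96, while Pecam1 lay at −0.98. In rats 0 of 5 were 2-fold apart, and Kdr lay at −0.03. Bile duct markers summed to 383, 338 and 602 in mice and to 1347, 1221 and 625 in rats, with Krt7 under the floor on all 6 arrays. Every mouse bile duct marker was under the floor on the mutant saline array, and 3 of 5 reached it in WT. The mouse sums thus rest on dim signals, and no direction is given. Summed hepatocyte markers were 281560, 275910 and 346810 in mice and 311310, 285290 and 312030 in rats, with 0 of 8 at 2-fold in either. Neutrophil markers in mice summed to 1821, 799 and 504 and were the list that differed most with leptin (3 of 4 at least 2-fold higher, all genes 0.182%). Csf3r, the other one measured, was lower with leptin, at a log2 ratio of −0.56.

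Probe sets of 1 gene often disagreed. In mice 16 ABC genes had several probe sets measured between the saline arrays. Their probe sets shared a sign in 8 genes, among them Abcb1a, Abcd2 and Abcb10, and differed in sign in the other 8, and in 6 genes they lay at least 1 log2 unit apart. The SD among probe sets was 0.62 over these 16 genes and 0.45 over all 5333 such genes. In rats 6 ABC genes had several, of which 3 shared a sign. Between the mutant arrays, for leptin, signs differed in 10 of 16 mouse genes and 1 of 6 rat genes.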

How the data were processed

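Total RNA of liver was hybridised to Affymetrix arrays, 3 mouse and 3 rat, per the labels' protocols. The authors deposited linear signal intensities; the submitters' processing notes name MAS5 without a version. MAS5 brings arrays to one trimmed mean and is noisy for dim probe sets. Detection calls were not used here, so the median of each platform served as a floor; the 25th and 75th percentiles were alternatives. The number of arrays limits the precision.

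Probe sets were named through GEO's platform annotation. On the mouse array 34945 of 45037 probe sets had 1 symbol, 932 several and 9160 none, and 34741 were updated through their gene identifier to GRCm38.p6; in rats 20826 of 31042 had 1, 436 several and 9780 none. A gene was its brightest probe set by mean over 3 arrays. Log2 ratios of 2 arrays were called at 2-fold, with no test. Every measured ABC gene at least 1.5-fold apart and a fixed list of liver transporters were named in full, besides up to 4 genes of each partner list with the largest ratio of at least 1.5-fold. Members and lists were chosen with earlier results of these data known. The calculation was checked on simulated data. Python 3.11.15, numpy 2.4.6, pandas 2.3.3, scipy 1.17.1 and matplotlib 3.10.9 were used.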

Additional observations from a re-analysis of the deposited data

Results flagged for a closer look

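For 5 ABC genes the genotype log2 ratio, mutant saline over WT saline, pointed in opposite directions in mice and rats, with both ratios beyond the SD among probe sets of a gene. The share of all genes that meet this rule was not counted. Direction was the same for 14 of 27 ABC genes (51.9%) and for 57.9% of the 8303 genes measured in both species. The difference between the species was not tested, since each group is 1 array. Abcb1a had a log2 ratio of at least 3.17 in mice, where WT was under the floor, and −0.71 in rats. Abcd2 had 3.21 in mice and −0.46 in rats, each with an array under the floor and so at least of that size. Abcb4 had 0.64 in mice and −0.49 in rats. Abcc3 had 0.75 in mice and −0.47 in rats. For Abcd2, Abcb4 and Abcc3 the rat ratio stood little beyond the rat SD of 0.44. Abcb8 had −1.16 in mice and 0.56 in rats, and the mouse value was not shared by its other measured probe set.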

How the results depend on the processing

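With 1 array per group no replicate could be left out. No paired analysis was possible because each group holds 1 array. Each comparison was recomputed under 7 other settings. Of 1006 single-gene values, 950 moved by less than the probe set SD. In all 20 changed sign, most of them near 0. Mouse leptin Abcc5 (0.25 in place of −0.71) and the stellate marker Col3a1 (−0.08 in place of 0.73 in mouse genotype) did so beyond that SD. Of values past 2-fold, 2 changed sign: mouse Abcb8, at 0.056 in place of −1.16 without probe sets that can bind several transcripts, and mouse Epcam, a bile duct marker, at 0.19 in place of −1.16 after median scaling. The cause was not tested.

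For mouse genotype the 3 ABC genes higher became 5 after median scaling and 0 with the floor at the 75th percentile, where fewer genes are tested and differences shrink by construction (Abcd2 0.99, Abcb1a 0.94, Abcc4 0.75 on the log2 scale). The 4 lower became 1 with that floor, 2 with the median over probe sets and 2 without probe sets that can bind several transcripts. All genes higher (533) became 962 after median scaling, 984 at the 25th and 267 at the 75th percentile, and all genes lower (443) became 235, 1341 and 198.

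For rat genotype the 1 ABC gene higher became 2 at the 25th percentile and 0 at the 75th, 0 without probe sets that can bind several transcripts and 0 on log2(signal + floor). The 1 lower became 3 at the 25th percentile, 0 at the 75th and 2 with the median over probe sets. All genes were 694 higher and 453 lower at the 25th percentile, 112 and 74 at the 75th, and 182 and 94 on log2(signal + floor).

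For leptin, all mouse genes higher and lower were 408 and 436 at the 25th percentile and 5 and 4 at the 75th, with 13 lower on log2(signal + floor). All rat genes were 211 and 296, 8 and 5, and 11 and 9 under these 3 settings, and 2 rat ABC genes, Abcc10 and Abcg8, were higher at the 25th percentile. After median scaling 59.2% of rat leptin calls were higher (29 of them, with 20 lower), against 46% as deposited (23 and 27). Signals near the floor limit Abcg4, Abca2 and Abcc10 in mice and Abca5, Abcd2 and Abcg5 in rats.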

Other observations

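Some rat probe sets are annotated to several ABC symbols and stand outside the family as defined by single symbols. A probe set annotated to both Abcb1a and Abcb1b, the copies of P-glycoprotein, read 747 in leptin-injected mutants, 910.0 in saline-injected mutants and 699 in WT, while both probe sets of Abcb1a alone were lower in mutants than in WT. A probe set annotated to Abcg3l4 and Abcg3l2 read 5478 in leptin-injected mutants, 6104 in saline-injected mutants and 4560.0 in WT.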
